A study of Danio rerio with 12 samples.

Results

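SB431542 is a small molecule that blocks the kinases ALK4, ALK5 and ALK7, and its effect on messenger RNA was measured here jointly across cut and uncut tails of zebrafish larvae. The comparison used every library of the series, 12 of 12, and asked which genes differed between SB431542 and its vehicle dimethyl sulfoxide (DMSO) when the difference in cut tails and the difference in uncut tails were averaged. All larvae were wild type. All received one of the 2 treatments from 72 to 90 h post fertilization (hpf), either 50 µM SB431542 or 0.1% DMSO. Whether the SB431542 groups also received DMSO is not given in the labels. In the cut groups about 200 µm of tail was removed under tricaine anaesthesia at 72 hpf, at the pigment gap, and a further 200 µm was taken for RNA 18 h later. Larvae of the uncut groups gave the same stretch of tail at 90 hpf without an earlier cut. Each library was a pool of 100 tails. The groups were DMSO cut (replicates 1, 3 and 4), DMSO uncut (replicates 1, 2 and 4), SB431542 cut (replicates 2, 3 and 4) and SB431542 uncut (replicates 2, 3 and 4), which gave 6 libraries per treatment. The labels do not say that the pools of a group came from separate clutches, so the p-values rest on how much the pools themselves varied, which can be technical in part.

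ALK4, ALK5 and ALK7 are the type I receptors through which activin, TGF-β and nodal ligands signal. A ligand brings a type II and a type I receptor together, the type I receptor phosphorylates Smad2 and Smad3, and these enter the nucleus with Smad4 and change the transcription of matrix, cytoskeletal and feedback genes. In the regenerating tail fin of zebrafish, activin and TGF-β signals are known to act in wound closure, migration of mesenchyme and blastema growth. The intact larval tail holds epidermis with an outer periderm, fin fold mesenchyme with its actinotrichia, notochord, muscle, nerve, pigment and blood vessels.

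Total counts ran from 7368986 to 12914981 per library, and the ranges of the 2 treatments overlapped. Every library held the markers expected of a tail: the actinotrichia gene and2 ran from 1263 to 2730 CPM, that is, counts scaled so that libraries of unequal depth compare,, the periderm keratin krt4 from 4004 to 12062, the basal epidermal keratin krt5 from 775 to 2460, and the posterior gene hoxa13b from 2.21 to 6.68, and none of these was at 0 in any library. SB431542 uncut replicate 4 stood apart, with a median correlation with the other libraries of 0.905 against 0.934 to 0.944 for the other 11. On the third principal component of log2 CPM, which held 15.05% of the variance, the DMSO libraries lay from -1.62 to 37.2 and the SB431542 libraries from -41.2 to -4.73, apart from this library at 39.8. The overall counts are therefore also given without it, and the count of a gene list where it changes without it.

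Averaged over cut and uncut tails, 565 of 13978 genes tested were higher with SB431542 and 272 were lower, 837 or 5.99% in all, at an adjusted p under 0.05 in the quasi-likelihood F test of edgeR, which is the test behind every adjusted p given here unless another is named. The 2 directions made up 4.04% and 1.95% of the genes tested, and these shares are the background for every count of called genes below. Increases were larger than decreases: the median fold change of the called genes was 1.96 for increases and 1.54 for decreases, 264 genes were at least 2-fold higher and 36 at least 2-fold lower. The called increases also lay at lower levels, with a median of 11.9 CPM against 27.4 for the called decreases and 7.93 for all genes tested. Without SB431542 uncut replicate 4, 556 of 14480 genes were higher (3.84%) and 331 lower (2.29%), and 442 of the 565 and 219 of the 272 were among them. Counts depended on single libraries in both treatments. The 837 calls became 1518 without SB431542 uncut replicate 3. They became 362 and 227 without DMSO cut replicates 3 and 4, and 511, 293 and 365 without DMSO uncut replicates 1, 2 and 4. They became 467, 239 and 492 without SB431542 cut replicates 2, 3 and 4. In all 12 fits that left out 1 library, 155 of the increases and 35 of the decreases were called. Of the 146 called genes that met the rule for naming given with the processing, 48 were called in all 12 and 98 were not, so the number of these fits in which a gene was called is given with it below.

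The levels of the 6 SB431542 libraries lay entirely above those of the 6 DMSO libraries for 219 genes, 1.57% of those tested, and entirely below for 118, or 0.844%. Of the called genes, 187 increases and 84 decreases were separated in this way. Within cut tails alone such a gap was found for 12.6% of genes in the direction of increase and 11.5% in that of decrease, and within uncut tails alone for 9.48% and 8.43%. The 3 SB431542 libraries lay above the 3 DMSO libraries in both kinds of tail for 474 genes (3.39%) and below in both for 327 (2.34%), and 334 of the called increases and 168 of the called decreases were among these.

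The effects in cut and in uncut tails share no library, so their likeness could be described. In both kinds of tail replicate 1 occurs only with DMSO, so a difference tied to that number would enter both effects. Over the 13978 genes, the log2 fold changes in the 2 kinds of tail correlated at 0.38 (Pearson) and 0.38 (Spearman), and at 0.53 and 0.48 over the 8604 genes that averaged 5 CPM or more. Without SB431542 uncut replicate 4 the values over all genes were 0.40 and 0.45. These are correlations across genes, which are not independent replicates, and are given as a description. Among the called increases the median log2 fold change was 0.91 in cut and 1.02 in uncut tails, and among the called decreases -0.64 and -0.61, which the choice of genes on the average partly fixes. Taken alone, the comparison of 3 with 3 libraries called few genes: 5 higher (0.0358%) and 7 lower (0.0501%) in cut tails, and 7 higher (0.0501%) and 1 lower (0.00715%) in uncut tails, in all 12 (0.0858%) and 8 (0.0572%). All 12 and all 8 of these were also called in the average. Of the 12 called in cut tails, 11 had the same sign in uncut tails, and of the 8 called in uncut tails all 8 had the same sign in cut tails. The share of all genes with the same sign in both kinds of tail is not given here, so these counts stand without a background. UCP2 was the gene called in both. These small counts hung on single libraries. The 12 calls in cut tails became 313, 69 and 37 without SB431542 uncut replicates 4, 2 and 3, and 3, 1, 0 and 4 without DMSO cut replicate 4 and SB431542 cut replicates 2, 3 and 4, while without DMSO cut replicate 3 there were 7. The 8 calls in uncut tails became 565 without SB431542 uncut replicate 3 and 25 without DMSO cut replicate 4, and 0 to 5 without each of the other 10 libraries.

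The difference between the effects in cut and in uncut tails was tested in the same fit, and 0 genes passed, with a smallest adjusted p of 0.457. At an unadjusted p under 0.05, 618 genes did (4.42%), DESeq2 called 2 and limma-voom 0. The median standard error (SE) of a log2 fold change was 0.23 for the average and 0.45 for the difference. Genes described below are called in the average unless said otherwise, except that genes of the TGF-β pathway are described whether called or not. No gene is shown to respond differently in the 2 kinds of tail.

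**Figure D1:**
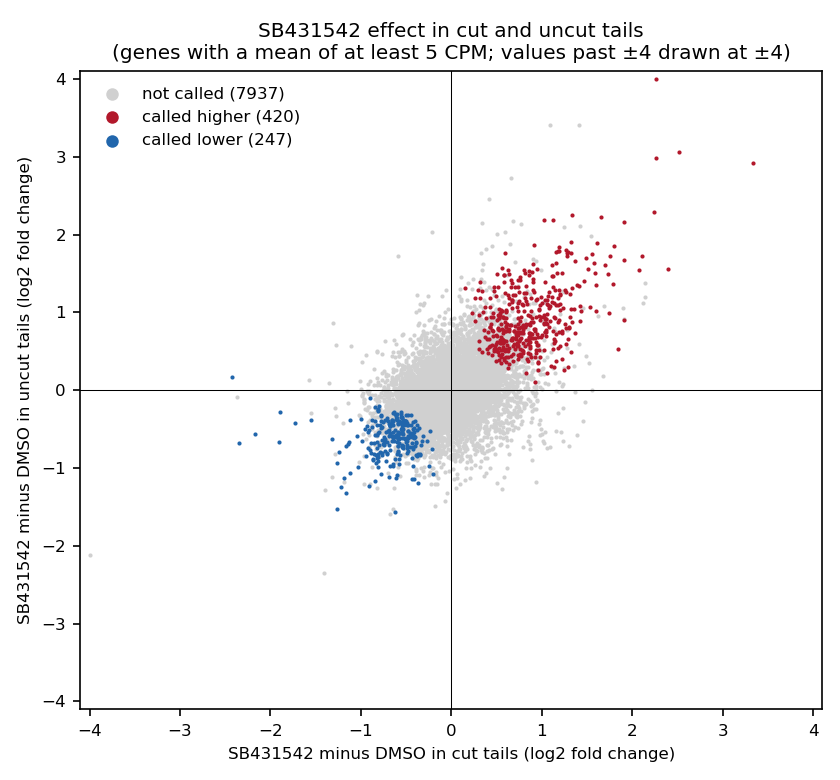
Log2 fold change of SB431542 over DMSO in cut tails (horizontal axis) against that in uncut tails (vertical axis) for the 8604 genes that averaged 5 CPM or more, each point a gene, with genes called higher or lower in the average in red and blue. The called increases spread towards the upper right, to larger changes than the called decreases at the lower left. A few decreases such as snorc lie far to the left with a smaller change in uncut than in cut tails.

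UCP2, a mitochondrial carrier of the uncoupling protein family, had the smallest adjusted p of all genes. Its level was 48.1, 43.9 and 21.0 CPM in cut DMSO tails and 108, 130 and 155 CPM in cut SB431542 tails. In uncut tails it was 23.2, 25.0 and 23.4 CPM with DMSO and 85.1, 74.6 and 98.6 CPM with SB431542. All 6 SB431542 libraries lay above all 6 DMSO libraries, and the cut SB431542 libraries were the highest. The average log2 fold change was 1.82 ± 0.18, or 3.54-fold (adjusted p = 6.11e-05), with 1.80 in cut and 1.85 in uncut tails. The related carrier ucp3, known from muscle, was higher too, at 9.599 to 13.02 CPM with DMSO (median 10.4) and 15.6 to 52.1 CPM with SB431542 (median 26.5), again without overlap (log2 fold change 1.39 ± 0.21, adjusted p = 0.00296). Both genes were called in all 12 fits that left out 1 library.

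Among the genes that met the rule for naming by size, which asks for 5 CPM or more and a call also without SB431542 uncut replicate 4, the largest increases were in soul5, EEF2K and TMEM14C. soul5, of the SOUL family of heme-binding proteins, ran from 2.66 to 5.58 CPM with DMSO (median 3.45). With SB431542 it was 36.4, 38.5 and 21.5 CPM in cut tails and 83.0, 8.58 and 4.64 CPM in uncut tails. Uncut replicate 2 was far above the others and uncut replicate 4 fell within the DMSO range, so the groups overlapped. The log2 fold change was 3.13 ± 0.71 (adjusted p = 0.0393), and 1.98 ± 0.24 (adjusted p = 0.000939) without SB431542 uncut replicate 2. The call was lost in 9 of the 12 fits that left out 1 library, at adjusted p up to 0.102. EEF2K, the kinase that phosphorylates elongation factor eEF2 and slows translation, ran from 1.74 to 10.6 CPM with DMSO (median 8.19) and from 17.0 to 115 CPM with SB431542 (median 37.6). TMEM14C, a mitochondrial membrane protein needed in mouse red cells for heme synthesis, ran from 2.103 to 11.7 CPM with DMSO (median 6.27) and from 12.3 to 62.4 CPM with SB431542 (median 42.0). Neither overlapped between treatments, and SB431542 uncut replicate 4 was the highest library for both. Their log2 fold changes were 2.79 ± 0.54 (adjusted p = 0.0247) and 2.62 ± 0.50 (adjusted p = 0.0225), and without that library 2.38 and 2.42 (adjusted p = 0.0358 and 0.0454). EEF2K was called in 7 and TMEM14C in 8 of the 12 fits, with the adjusted p reaching 0.0639 and 0.0624 in the others.

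Other leading increases held in every such fit. lonrf1, which encodes a RING finger protein with a domain named for Lon proteases, rose from 8.47 to 22.3 CPM (median 16.3) to 33.7 to 125 CPM (median 71.4), with a log2 fold change of 2.27 ± 0.37 (adjusted p = 0.0101). Its relative lonrf4 lay at 12.2 to 20.4 CPM with DMSO and 32.1 to 97.3 CPM with SB431542 (1.65 ± 0.26, adjusted p = 0.00585). For both, uncut replicate 2 was the highest SB431542 library and the treatments did not overlap. The ammonium transporter gene RHCG (ENSDARG00000007080), expressed in ionocytes of fish skin, ran from 4.02 to 10.6 CPM and from 12.9 to 29.7 CPM (1.74 ± 0.25, adjusted p = 0.00345), with 1.75 in cut and 1.72 in uncut tails. A second RHCG gene (ENSDARG00000003203) had a log2 fold change of 1.21 ± 0.26 (adjusted p = 0.0185), and the summed level over the 3 gene IDs of this symbol had a ratio of means of 2.68. POSTN (ENSDARG00000043806), a gene of the matricellular protein periostin, ran from 2.09 to 5.43 CPM and from 5.08 to 22.7 CPM (1.66 ± 0.27, adjusted p = 0.00346). The treatments overlapped slightly for it, and its highest SB431542 library was an uncut one.

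The remaining leading increases were less even over the libraries. ANKRD9, an ankyrin repeat protein gene, had a log2 fold change of 1.81 ± 0.36 (adjusted p = 0.0198), and its call was lost without DMSO cut replicate 4 (adjusted p = 0.0614). bcl2l10, of the BCL2 family of apoptosis regulators, had one of 1.66 ± 0.34 (adjusted p = 0.0150), lost without DMSO uncut replicate 2 (adjusted p = 0.0518). CRTAC1 (ENSDARG00000059826), a gene of a secreted cartilage matrix protein, rose from a mean of 12.9 to 49.7 CPM. The actin crosslinker gene ACTN1 rose from 5.26 to 18.5 CPM, the glutamate dehydrogenase gene glud1a from 5.08 to 17.7 CPM and the WD repeat gene wdr76 from 8.32 to 29.1 CPM. For these last 4 the SB431542 libraries spread widely and the calls held in 2 to 5 of the 12 fits, with the adjusted p reaching 0.0752 to 0.110 in the others. wdr76 fell in size from a log2 fold change of 1.79 to 1.201 (adjusted p = 0.0202) without SB431542 uncut replicate 2.

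**Figure D2:**
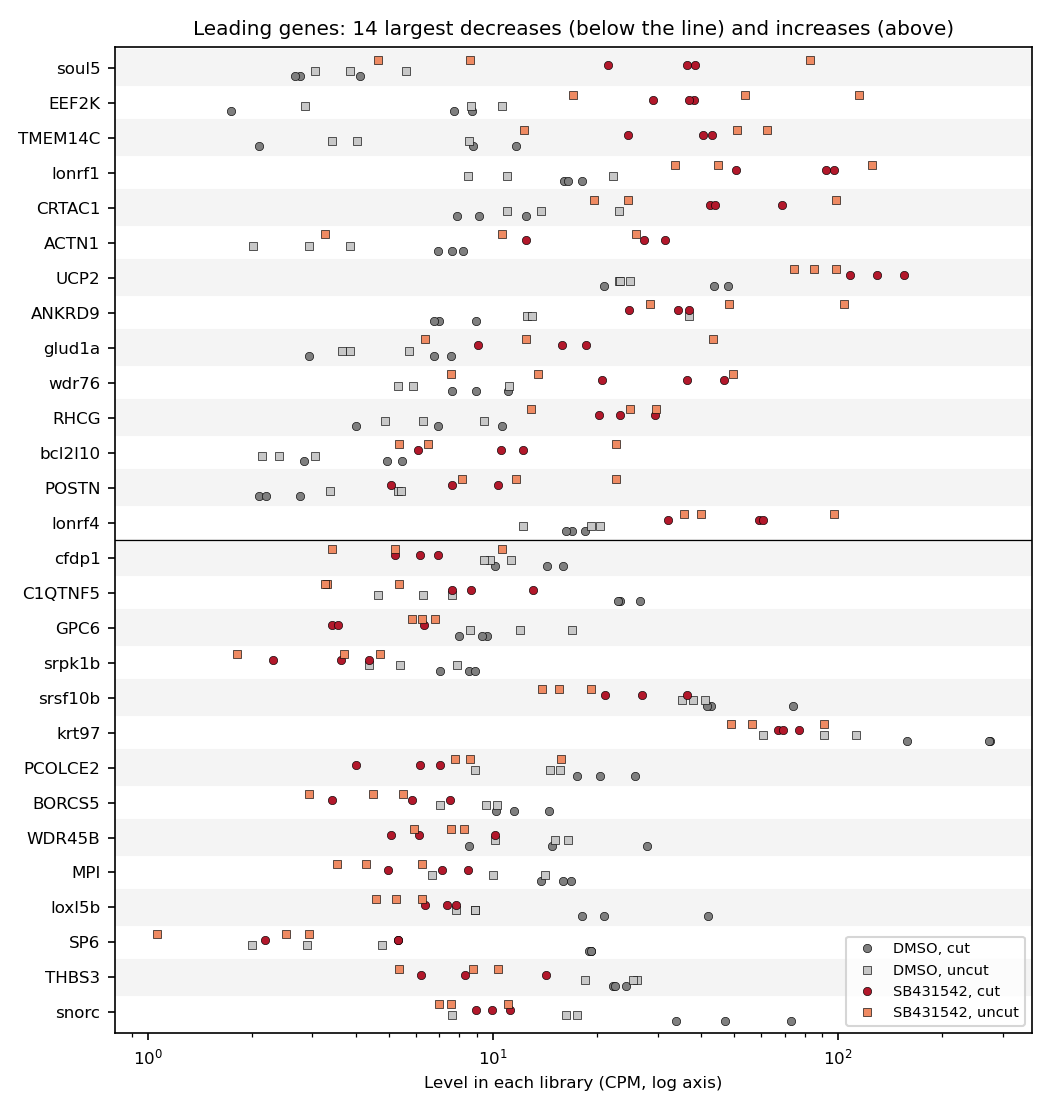
Level in CPM on a log axis of the 14 genes with the largest increases (above the line) and the 14 with the largest decreases (below it), each point a library, circles for cut and squares for uncut tails, grey for DMSO and red or orange for SB431542. UCP2, EEF2K, TMEM14C, lonrf1, RHCG and lonrf4 show a gap between the treatments, soul5 and glud1a have wide SB431542 groups, and for snorc, SP6, loxl5b and krt97 the cut DMSO libraries stand above all others.

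By the same rule the largest decrease was in snorc. This gene, which encodes a membrane proteoglycan of cartilage in mouse, was at 47.1, 33.96 and 72.9 CPM in cut DMSO tails and at 8.96, 11.2 and 9.91 CPM in cut SB431542 tails. In uncut tails it was at 17.5, 16.3 and 7.61 CPM with DMSO and at 6.96, 7.55 and 11.09 CPM with SB431542. The cut DMSO libraries stood apart above the others, while in uncut tails the lowest DMSO library lay among the SB431542 libraries. The average log2 fold change was -1.51 ± 0.23 (adjusted p = 0.00346), from -2.35 in cut tails and -0.67 in uncut ones. The difference of the 2 was -1.68 ± 0.45 (unadjusted p = 0.00167, adjusted p = 0.951). THBS3 (ENSDARG00000077641), a thrombospondin gene, was at 18.5 to 26.2 CPM with DMSO (median 23.4) and at 5.34 to 14.3 CPM with SB431542 (median 8.504). It separated the treatments fully and about equally in cut and uncut tails, with a log2 fold change of -1.40 ± 0.20 (adjusted p = 0.00288) from -1.26 and -1.53.

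SP6, a zinc finger transcription factor of surface ectoderm in mouse, was at 19.2, 19.03 and 19.2 CPM in cut DMSO tails and at 5.32, 2.19 and 5.32 CPM in cut SB431542 tails. In uncut tails it was lower throughout, at 4.78, 2.00 and 2.89 CPM with DMSO and 1.06, 2.52 and 2.92 CPM with SB431542, and there the treatments overlapped. The average log2 fold change was -1.37 ± 0.28 (adjusted p = 0.0109). loxl5b, a lysyl oxidase gene of collagen crosslinking, was at 7.80 to 42.0 CPM with DMSO (median 13.503) and 4.59 to 7.80 CPM with SB431542 (median 6.31), ranges that just met, with -1.28 ± 0.21 (adjusted p = 0.00346). The keratin gene krt97 was at 276, 274 and 158 CPM in cut DMSO tails against 66.9, 69.3 and 77.0 CPM in cut SB431542 tails, and in uncut tails at 112, 90.8 and 60.5 CPM against 48.9, 56.2 and 91.0 CPM (-1.08 ± 0.19, adjusted p = 0.00838). PCOLCE2 (ENSDARG00000055575), which enhances the trimming of procollagens, averaged 17.1 CPM with DMSO and 8.21 CPM with SB431542 (-1.09 ± 0.22, adjusted p = 0.0101), with -1.90 in cut and -0.28 in uncut tails. These 4 genes, like snorc, were called in cut tails alone and not in uncut tails alone, and the difference did not pass for any of them (adjusted p = 0.951 each).

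The other leading decreases were about as large in uncut as in cut tails. They were the splicing factor gene srsf10b, from a mean of 45.5 to 22.2 CPM (log2 fold change -1.07 ± 0.17, adjusted p = 0.00351), and the SR protein kinase gene srpk1b (-1.01 ± 0.26, adjusted p = 0.0295). GPC6 (ENSDARG00000103156), a glypican gene, fell from 10.7 to 5.36 CPM without overlap (-1.01 ± 0.21, adjusted p = 0.0129). The mannose phosphate isomerase gene MPI had a log2 fold change of -1.16, the autophagy gene WDR45B -1.10, BORCS5 of a complex that positions lysosomes -1.09, C1QTNF5 -0.97 and cfdp1 -0.92. All but WDR45B, srpk1b and cfdp1 among the 14 were called in each of the 12 fits. Those 3 were called in 6, 5 and 2 of them, with the adjusted p reaching 0.0791, 0.0888 and 0.0714 in the others.

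The tested targets of the pathway that SB431542 inhibits were called at about the share of all genes, 6.06% against 5.99%. Of 15 ligand gene IDs in the list 4 were tested, and 0 of these were called. The activin genes INHBA (ENSDARG00000012671 and ENSDARG00000024759) had log2 fold changes of -0.43 ± 0.21 and 0.28 ± 0.40, INHBB (ENSDARG00000040777) 0.74 ± 0.25 and tgfb1a -0.08 ± 0.15. The adjusted p was 0.226, 0.724, 0.0847 and 0.794 in that order. Over both kinds of tail together, tgfb1a ran from 14.9 to 42.4 CPM with DMSO and from 16.3 to 41.5 CPM with SB431542, an almost complete overlap. The sum of the 4 ligand genes was lower with SB431542 without overlap in cut tails, at 64.2 to 71.2 CPM against 54.4 to 60.6 CPM. In uncut tails it overlapped. Of 17 receptor and Smad gene IDs in the list 6 were tested, and 0 of these were called. The type I receptor genes TGFBR1 and ACVR1C and the SMAD4 genes were in the list but not among those tested. The sum of the 6 tested was lower with SB431542 without overlap in uncut tails, at 112 to 117 CPM against 107 to 109 CPM, and overlapped in cut tails. The type II receptor gene ACVR2A ran from 50.5 to 60.1 CPM with DMSO and from 43.4 to 54.2 CPM with SB431542 (-0.14 ± 0.11, adjusted p = 0.487). The type I receptor gene ACVR1B (ENSDARG00000018968), which encodes ALK4, had a log2 fold change of 0.49 ± 0.25 (adjusted p = 0.249), and TGFBR2 (ENSDARG00000034541) was low, with medians of 1.61 and 2.71 CPM. SMAD2 was at a median of 24.6 CPM with DMSO and 19.2 CPM with SB431542 (-0.30 ± 0.14, adjusted p = 0.207), and the more abundant SMAD3 (ENSDARG00000036096) at 30.0 and 29.3 CPM.

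Of 33 target and feedback genes tested, out of 41 gene IDs in the list, 2 were higher and 0 lower, with a median log2 fold change of 0.0058 against 0.0029 over all genes. The increases were POSTN, above, and TAGLN (ENSDARG00000033466), an actin-binding protein gene of contractile cells. TAGLN ran from 33.3 to 64.9 CPM with DMSO (median 45.1) and from 43.6 to 98.1 CPM with SB431542 (median 69.9), higher within cut and within uncut tails but overlapping across them (0.52 ± 0.13, adjusted p = 0.0304). It was called in 5 of the 12 fits that left out 1 library, with the adjusted p reaching 0.0790 in the others. Both symbols belong to 2 gene IDs: the other TAGLN (ENSDARG00000045408) had -0.35 ± 0.20 and the other POSTN (ENSDARG00000104267) -0.22 ± 0.10. The latter held most of the periostin counts, at 970 to 1481 CPM with DMSO and 946 to 1243 CPM with SB431542, so the sum over both POSTN genes had a ratio of means of 0.855. Summed over the 33 genes, the level was lower with SB431542 within each kind of tail without overlap, at 2704 to 3053 CPM against 2302 to 2673 CPM in cut tails and at 2485 to 2539 CPM against 1992 to 2431 CPM in uncut tails. The sum follows its most abundant members, and the count above weighs all genes alike.

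Among the feedback genes of the pathway, the inhibitory Smad gene SMAD7 had a log2 fold change of -0.0033 ± 0.17. SMAD7 ran from 6.86 to 11.95 CPM with DMSO and from 7.10 to 10.9 CPM with SB431542, so one range held the other. CCN2, a connective tissue growth factor gene, was at 6.49 to 23.9 CPM with DMSO and at 12.5 to 22.1 CPM in 5 SB431542 libraries, but at 133 CPM in uncut replicate 4. Its log2 fold change was 0.91 ± 0.59 with that library and 0.08 ± 0.32 without it. Follistatin, which binds activins, showed the same library apart: FST (ENSDARG00000052846) was at 2.60 to 8.99 CPM with DMSO, at 1.24 to 3.85 CPM in 5 SB431542 libraries and at 14.6 CPM in uncut replicate 4. It had a log2 fold change of -0.83 ± 0.45 (adjusted p = 0.298), and of -1.48 ± 0.32 (adjusted p = 0.00906) without that library. The other FST (ENSDARG00000057992) was not called, with medians of 9.23 CPM with DMSO and 7.97 CPM with SB431542. Summed over both FST genes the level overlapped, at 7.70 to 20.1 CPM and 5.66 to 22.2 CPM, a ratio of means of 0.727. THBS1 (ENSDARG00000010785), which can activate latent TGF-β, lay just outside the threshold, at 84.0 to 125 CPM and 58.0 to 98.7 CPM (-0.47 ± 0.14, adjusted p = 0.0512), and inside it without that library (adjusted p = 0.0193). The other THBS1 (ENSDARG00000103775) was not called, with medians of 37.7 CPM with DMSO and 41.3 CPM with SB431542. The sum over both THBS1 genes overlapped, at 104 to 169 CPM and 102 to 135 CPM, a ratio of means of 0.826. The corepressor gene TGIF1 had -0.52 ± 0.16 (adjusted p = 0.0586). Without uncut replicate 4 the list thus had 2 higher and 2 lower genes. FN1, TNC, TGFBI, snai1a, snai1b, snai2, acta2, SKI and LOXL2 were not called.

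**Figure D3:**
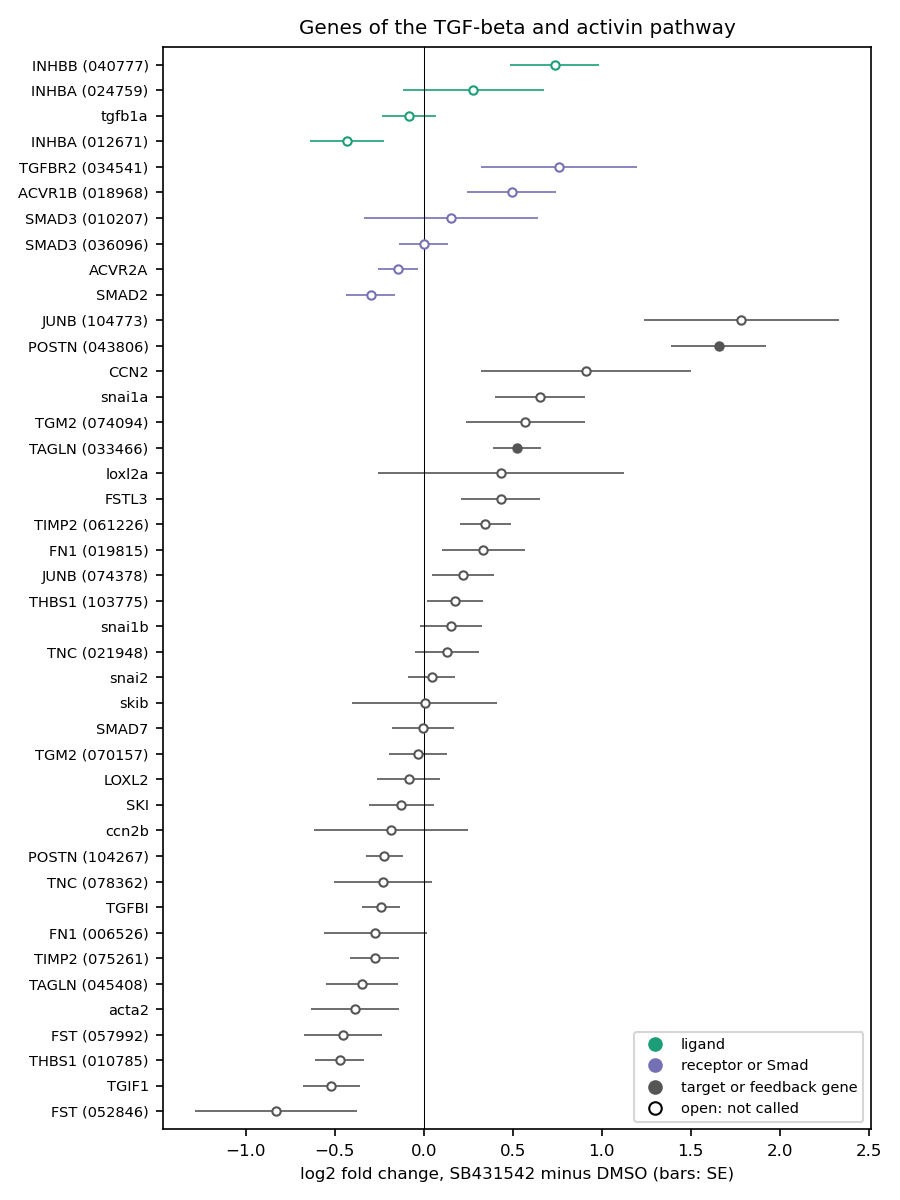
Average log2 fold change of SB431542 over DMSO with its SE (bars) for the ligand genes, the receptor and Smad genes and all but 1 of the target and feedback genes tested, filled where called and open where not. The last digits of the Ensembl ID follow a symbol that belongs to several genes. POSTN and TAGLN are the 2 filled points, and the targets lie on both sides of 0.

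In the related BMP pathway, which signals through other type I receptors and Smads, 3 of 24 genes tested were higher and 1 lower. ID1, a target that encodes an inhibitor of bHLH transcription factors, was at 83.7 to 123 CPM with DMSO (median 105) and at 124 to 240 CPM with SB431542 (median 149). ID2, of the same family, was at 24.3 to 34.2 CPM and 36.6 to 67.8 CPM. The treatments did not overlap for either, and SB431542 uncut replicate 4 was the highest library for both. Their log2 fold changes were 0.66 ± 0.16 (adjusted p = 0.0240) and 0.61 ± 0.16 (adjusted p = 0.0311), and without that library 0.50 (adjusted p = 0.0255) and 0.44 (adjusted p = 0.0447). BAMBI (ENSDARG00000055381), which encodes a pseudoreceptor that dampens TGF-β and BMP signals, ran from 27.8 to 44.2 CPM and from 20.8 to 32.4 CPM (-0.56 ± 0.14, adjusted p = 0.0288). The sum over both BAMBI gene IDs ran from 29.7 to 46.0 CPM and from 23.5 to 42.1 CPM, a ratio of means of 0.807. The ligand gene BMP2 (ENSDARG00000013409) rose from a mean of 0.245 to 1.49 CPM and was not called without SB431542 uncut replicate 4 (adjusted p = 0.0831). Over both BMP2 gene IDs the ratio of means was 1.81. ID1, ID2, BAMBI and BMP2 were called in 7, 4, 6 and 4 of the 12 fits, with the adjusted p reaching 0.0705, 0.0896, 0.0929 and 0.0912 in the others. The list as a whole had a median log2 fold change of 0.25, and 0.10 without uncut replicate 4.

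Wnt, FGF, Notch, Hedgehog, retinoic acid and Hox lists each held 0 to 3 calls. Wnt genes gave 2 higher of 28, or 7.14%, the ligand gene WNT11 (1.04 ± 0.27, adjusted p = 0.0370) and the receptor gene FZD7 (ENSDARG00000060004, 0.77 ± 0.18, adjusted p = 0.0239). WNT11 was not called without SB431542 uncut replicate 4 (adjusted p = 0.0665), where 1 of 28 was left. FGF and ERK genes gave 2 of 23, the phosphatase genes DUSP1 (1.12 ± 0.29, adjusted p = 0.0329) and DUSP6, which limit MAP kinases. DUSP6 was at 31.8 to 47.8 CPM with DMSO and 48.6 to 61.2 CPM with SB431542, without overlap (0.45 ± 0.12, adjusted p = 0.0387). Notch genes gave 1 of 24, the ligand gene jag2b (1.26 ± 0.25, adjusted p = 0.0101), and without that library 1 lower gene besides. Hedgehog genes gave 0 of 13 in either direction. Retinoic acid genes gave 1 of 22, RBP4, a carrier of retinol, which at 1275 to 1577 CPM with DMSO and 1775 to 2416 CPM with SB431542 made up most of the list's counts (0.48 ± 0.11, adjusted p = 0.0165). Of 40 Hox genes, HOXD12 (1.03 ± 0.20, adjusted p = 0.0101) and HOXB7 were higher and HOXD9 (-0.53 ± 0.14, adjusted p = 0.0318) lower. jag2b, RBP4 and HOXD12 were called in all 12 fits that left out 1 library, and the other calls of these pathways were lost in 5 to 10 of them, with the adjusted p reaching at most 0.104.

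The list of circadian clock and light-responsive genes held the highest share of calls of any list. With SB431542, 9 of 31 tested were higher and 0 lower, 29.0% against the background of 4.04% higher, with a median log2 fold change of 0.33. Of these 9, 2 were called in all 12 fits that left out 1 library. Like the other lists, this one was written with earlier results of these data known, so its share and rank are a description. Without SB431542 uncut replicate 4 the counts were 8 and 1. Summed over the list, the level was 513 to 664 CPM in the DMSO libraries and 722 to 989 CPM in the SB431542 libraries, with no overlap. The clock runs on feedback between activators such as BMAL1 and repressors of the period and cryptochrome families, and in zebrafish the clocks of peripheral tissues can be set directly by light, which induces per2, tefa and photolyase genes. tefa, a PAR bZIP transcription factor gene, was at 27.12, 22.7 and 22.2 CPM in cut and 32.9, 20.8 and 18.97 CPM in uncut DMSO tails, and at 72.1, 94.0 and 49.4 CPM in cut and 119, 52.98 and 54.6 CPM in uncut SB431542 tails. All SB431542 libraries lay above all DMSO libraries (1.61 ± 0.23, adjusted p = 0.00346). The casein kinase gene CSNK1D, whose product phosphorylates period proteins, had a log2 fold change of 0.94 ± 0.18 (adjusted p = 0.00911), the photolyase gene cry5 one of 1.27 ± 0.27 (adjusted p = 0.0167), cry3a one of 0.56 ± 0.14 (adjusted p = 0.0253) and the low BMAL1 (ENSDARG00000006791) one of 1.55 ± 0.38 (adjusted p = 0.0251). BMAL1 was not called without uncut replicate 4 (adjusted p = 0.0531), and the sum over both BMAL1 gene IDs had a ratio of means of 1.79. CSNK1D and tefa were called in all 12 fits, cry5 in all but that without DMSO cut replicate 4 (adjusted p = 0.0644), and cry3a in 8.

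A set of 10 genes was followed further by library, chosen after their values were seen: tefa, PER2, cry5, the cryptochrome gene cry-dash, the photolyase gene cpdp, the nucleotide excision repair genes DDB2 and XPC, the base excision repair gene NEIL1, lonrf1 and lonrf4. As they were picked for their values, the counts below describe them and test nothing. In the average 8 of the 10 were called, and XPC and NEIL1 were not (adjusted p = 0.125 and 0.0851). All 10 were called without SB431542 uncut replicate 4. cry-dash was at 8.37 to 13.97 CPM with DMSO and 17.9 to 50.6 CPM with SB431542 (1.49 ± 0.22, adjusted p = 0.00296). DDB2 was at 13.48 to 30.9 CPM and 35.5 to 76.7 CPM (1.14 ± 0.21, adjusted p = 0.00911). Uncut replicate 2 was the highest SB431542 library for 8 of the 10 genes, and the lowest was uncut replicate 4 for 5 and uncut replicate 3 for 3. XPC showed the spread most clearly, with 88.4 CPM in uncut replicate 2, 34.04 in uncut replicate 3 and 8.77 in uncut replicate 4, against 14.3 to 23.6 CPM with DMSO. The cryptochrome gene CRY1, also chosen after its values were seen, was not called for either of its gene IDs, ENSDARG00000045768 and ENSDARG00000011583 (adjusted p = 0.408 and 0.562). PER2 was called in 6 and cpdp in 4 of the 12 fits that left out 1 library. The labels do not give the hour or the lighting at collection.

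**Figure D4:**
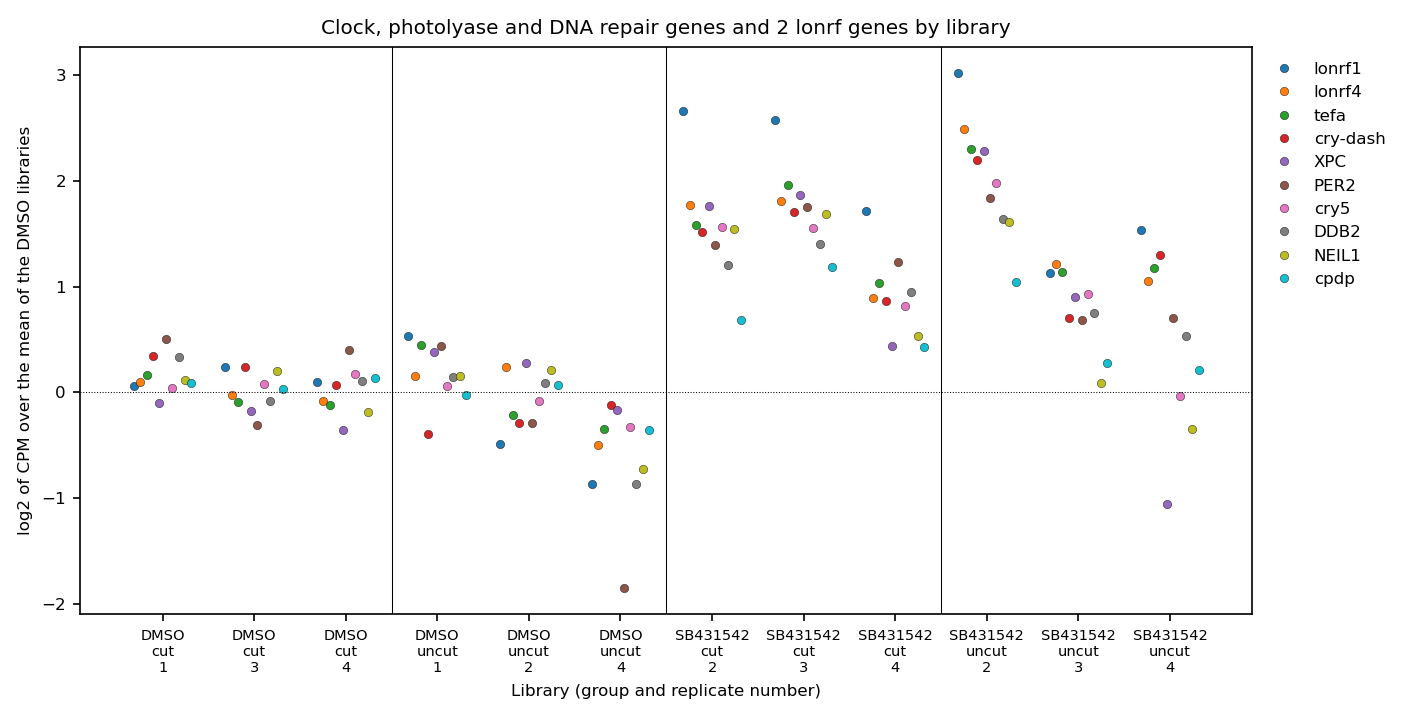
Level of 10 clock, photolyase, DNA repair and lonrf genes in each of the 12 libraries, as log2 of CPM over the mean of the 6 DMSO libraries (vertical axis), with the libraries by group along the horizontal axis and a colour per gene. The SB431542 libraries lie mostly above 0, highest in uncut replicate 2 and in cut replicates 2 and 3. Uncut replicate 4 holds XPC, NEIL1 and, by a little, cry5 below 0.

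Genes of xenobiotic and glutathione metabolism were called higher in several lists and lower in none of them. Xenobiotic metabolism gave 5 higher of 23 tested, with a median log2 fold change of 0.43 and a summed level of 250 to 280 CPM with DMSO and 317 to 383 CPM with SB431542, with no overlap. Without SB431542 uncut replicate 4 it gave 3, and cyp2v1 and POR (ENSDARG00000055092), below, were not called (adjusted p = 0.0990 and 0.0525). The efflux pump gene abcb5 was at 36.6 to 75.8 CPM with DMSO and 76.1 to 106 CPM with SB431542 (0.65 ± 0.13, adjusted p = 0.0101). Both genes of cytochrome P450 reductase, POR (ENSDARG00000055092 and ENSDARG00000059035), were higher by 0.67 ± 0.18 and 0.59 ± 0.17, the epoxide hydrolase gene EPHX1 by 0.89 ± 0.24 and cyp2v1 by 0.98 ± 0.27, with adjusted p of 0.0357, 0.0447, 0.0367 and 0.0405. The list of NRF2 and glutathione genes, which guard against oxidants and electrophiles, gave 7 of 45, and 7 without that library. The glutathione transferase gene gstp1.2 was at 187 to 317 CPM with DMSO (median 260) and 363 to 574 CPM with SB431542 (median 480.1), with no overlap (0.91 ± 0.14, adjusted p = 0.00346). gstt1b, the malic enzyme gene ME1, which yields NADPH, and the glutathione reductase gene GSR were higher by 0.98 ± 0.19, 1.11 ± 0.23 and 0.64 ± 0.15, the first 2 without overlap. Of 13 genes of the aryl hydrocarbon receptor response, cyp1c1 (1.31 ± 0.28, adjusted p = 0.0154) and UGT1A1 (2.17 ± 0.50, adjusted p = 0.0192) were higher, and 3 were without that library. cyp1c1 was at 1.71 to 8.09 CPM with DMSO and 8.37 to 18.6 CPM with SB431542. abcb5, gstp1.2, gstt1b and ME1 were called in all 12 fits that left out 1 library, cyp1c1 in all but those without DMSO cut replicate 4 and SB431542 cut replicate 3, and the others in 2 to 9, with the adjusted p reaching 0.125 for cyp2v1.

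Energy metabolism moved in single genes. Of 71 genes of oxidative phosphorylation 4 were higher and 0 lower, at a median of -0.02, with the complex I genes NDUFS6 (0.79 ± 0.19, adjusted p = 0.0291) and NDUFB4 (0.45 ± 0.12, adjusted p = 0.0388) among them. NDUFS6 was at 42.5 to 80.6 CPM with DMSO and 68.6 to 212 CPM with SB431542, the last in uncut replicate 4. Without that library 2 of the list were called, NDUFB4 not among them (adjusted p = 0.0629). Of 41 genes of fatty acid oxidation 2 were higher and 2 lower, and 1 and 3 without that library. HADHB, of the mitochondrial trifunctional protein, was at 174 to 201 CPM with DMSO and 131 to 159 CPM with SB431542 (-0.40 ± 0.10, adjusted p = 0.0329), without overlap. In the tricarboxylic acid cycle list DLAT of pyruvate dehydrogenase (0.49 ± 0.11, adjusted p = 0.0171) and SDHC (0.44 ± 0.12, adjusted p = 0.0395) were higher, 2 of 30. Of 42 genes of mitochondrial import and quality control, a list that also held lonrf1, 3 were higher and 1 lower, and 4 and 1 without that library. Beside lonrf1 the cochaperone gene dnaja3b (1.18 ± 0.23, adjusted p = 0.0101) and the chaperone gene HSPA9 (0.53 ± 0.13, adjusted p = 0.0273) were higher. The fission gene DNM1L was lower without overlap, from 36.8 to 55.9 CPM to 22.8 to 34.6 CPM (-0.69 ± 0.15, adjusted p = 0.0126). In the sterol synthesis list 1 of 24 was higher, MSMO1, at 0.266 to 0.867 CPM with DMSO and 2.18 to 6.95 CPM with SB431542 (2.71 ± 0.40, adjusted p = 0.00288). Of these genes DNM1L, MSMO1 and dnaja3b were called in all 12 fits. DLAT was lost without DMSO uncut replicate 2 and without SB431542 cut replicate 3, and the remaining ones were called in 1 to 7, with the adjusted p reaching 0.112 for SDHC.

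Genes of DNA replication included more decreases than increases. Of 42 genes of S phase, 6 were lower and 1 higher, against 1.95% and 4.04% of all genes, with 30 of the 42 below 0 and a median of -0.36. Without SB431542 uncut replicate 4, 13 were lower and 1 higher. The DNA ligase gene LIG1 was at 64.1, 50.8 and 60.5 CPM in cut and 62.6, 71.0 and 59.9 CPM in uncut DMSO tails, and at 35.6, 47.8 and 31.8 CPM in cut and 29.4, 40.4 and 18.6 CPM in uncut SB431542 tails. The treatments did not overlap (-0.87 ± 0.17, adjusted p = 0.00978), and uncut replicate 4 was the lowest library. POLA1 of DNA polymerase alpha had -0.85 ± 0.17 (adjusted p = 0.0101), UHRF1, which maintains DNA methylation, -0.82 ± 0.18 (adjusted p = 0.0168), the helicase gene MCM6 (ENSDARG00000057683) -0.65 ± 0.15 (adjusted p = 0.0186) and the histone chaperone gene chaf1a -0.56 ± 0.13 (adjusted p = 0.0240). The summed level of the S phase list overlapped, at 589 to 1206 CPM with DMSO and 382 to 927 CPM with SB431542. Within cut tails it did not, at 942 to 1206 CPM against 563 to 927 CPM, and within uncut tails it did, at 589 to 717 CPM against 382 to 655 CPM. Of 45 genes of mitosis 0 were higher and 1 lower, TPX2 (-0.52 ± 0.15, adjusted p = 0.0437), and 3 were lower without uncut replicate 4, where the median went from -0.08 to -0.33. LIG1 and POLA1 were called in all 12 fits, and UHRF1 and MCM6 in all but that without DMSO cut replicate 4 (adjusted p = 0.0597 and 0.0557). chaf1a was called in 7 and TPX2 in 3.

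Genes of protein synthesis and turnover were called in both directions. Of 74 ribosomal protein genes 65 lay below 0, at a median of -0.22, and 0 were called in either direction. Of 55 genes of ribosome biogenesis 3 were lower, led by DKC1, the pseudouridine synthase dyskerin, from 116 to 175 CPM (median 144) to 81.8 to 128 CPM (median 90.7), with a small overlap (-0.60 ± 0.13, adjusted p = 0.0131). The others were tsr1 and DDX18, and DDX18 was not called without SB431542 uncut replicate 4 (adjusted p = 0.0626). Of 45 proteasome genes 5 were lower and 1 higher, with PSMD13 (-0.54 ± 0.13, adjusted p = 0.0232), PSMB6, PSMB1 and PSMD1 lower by 0.45 to 0.54 on the log2 scale. The higher one was PSMD10, whose product is an assembly chaperone of the proteasome rather than a subunit (1.03 ± 0.28, adjusted p = 0.0395). Without uncut replicate 4 PSMD10 was not called (adjusted p = 0.0669), and the list gave 0 higher and 6 lower. In the list of protein folding in the endoplasmic reticulum, PDIA3 (-0.66 ± 0.14, adjusted p = 0.0161) and calr3b (-0.85 ± 0.23, adjusted p = 0.0466) were lower. EDEM1, which helps to clear misfolded proteins, was higher without overlap, from 8.502 to 15.8 CPM to 15.9 to 31.3 CPM (0.95 ± 0.18, adjusted p = 0.00979). That list gave 1 higher and 2 lower of 29, and 2 and 3 without uncut replicate 4. Of 32 heat shock genes 3 were higher and 1 lower: dnajb1b averaged 0.530 CPM with DMSO and 3.05 CPM with SB431542 (2.45 ± 0.47, adjusted p = 0.00979), and the abundant chaperone gene HSP90AB1 fell from 4016 to 2777 CPM (-0.53 ± 0.14, adjusted p = 0.0372). HSP90AB1 was not called without uncut replicate 4 (adjusted p = 0.0516), where the list gave 3 higher and 2 lower. DKC1, EDEM1 and dnajb1b were called in all 12 fits and PDIA3 in all but that without DMSO cut replicate 4 (adjusted p = 0.0564). The proteasome genes, tsr1, DDX18, calr3b and HSP90AB1 were called in 2 to 9, with the adjusted p reaching 0.153 for DDX18.

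Autophagy and lysosome genes gave 5 higher of 46 and 0 lower, and 8 higher without SB431542 uncut replicate 4. NPC2 (ENSDARG00000090912), which moves cholesterol out of lysosomes, was at 9.14 to 34.3 CPM with DMSO (median 16.7) and 30.5 to 65.1 CPM with SB431542 (median 50.1), with a small overlap (1.36 ± 0.25, adjusted p = 0.0101). GABARAPL2, gabarapb and MAP1LC3A, which encode ATG8 proteins of the autophagosome membrane, were higher by 0.74 ± 0.16, 0.68 ± 0.16 and 0.66 ± 0.16 (adjusted p = 0.0149, 0.0232 and 0.0257), and atg9b by 1.08 ± 0.26 (adjusted p = 0.0258). Of 22 targets of p53, 3 were higher, among them the low GADD45A (ENSDARG00000043581) and the apoptosis gene bbc3, and TP53INP1 was lower (-0.57 ± 0.15, adjusted p = 0.0311). bbc3 was not called without SB431542 uncut replicate 4 (adjusted p = 0.0770), where 2 were higher. Of 29 genes of the glucocorticoid and FOXO response 24 lay above 0, at a median of 0.23, and 0 were called, or 1 without that library. NPC2 was called in all 12 fits that left out 1 library and GABARAPL2 in all but that without SB431542 cut replicate 3 (adjusted p = 0.0527). The other genes named from these lists were called in 3 to 7.

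Genes of wound repair and matrix moved in both directions. Of 19 wound and matrix proteases and their inhibitors 4 were higher and 0 lower, and 4 without uncut replicate 4, where another member took the place of HTRA1 (adjusted p = 0.0840). MMP9, a gelatinase gene, was at 13.2, 18.6 and 10.97 CPM in cut DMSO tails and 38.5, 28.4 and 37.0 CPM in cut SB431542 tails, and in uncut tails at 1.86, 0.857 and 1.35 CPM against 4.13, 2.52 and 7.06 CPM. It was higher with SB431542 within cut and within uncut tails without overlap (1.52 ± 0.24, adjusted p = 0.00346). mmp30 (0.80 ± 0.18, adjusted p = 0.0168), SERPINE2, an inhibitor of thrombin and urokinase (0.97 ± 0.22, adjusted p = 0.0176), and HTRA1 (ENSDARG00000032831, 0.86 ± 0.24, adjusted p = 0.0428) were the others. The sum over both HTRA1 gene IDs ran from 23.0 to 48.1 CPM with DMSO and from 27.4 to 51.1 CPM with SB431542, a ratio of means of 1.22. Of 27 contractile genes of cells other than muscle 4 were higher: ACTN1, TAGLN, the calponin gene CNN3 (ENSDARG00000099510, 0.75 ± 0.18, adjusted p = 0.0250) and the tropomyosin gene tpm4a (0.83 ± 0.22, adjusted p = 0.0385). Without uncut replicate 4 tpm4a was not called (adjusted p = 0.0703), and 3 were higher. The median of that list was -0.04, so most of its members did not follow. Of 33 collagen and collagen-processing genes COL12A1 (ENSDARG00000019601, -0.60 ± 0.15, adjusted p = 0.0276) and PCOLCE2 were lower and POSTN higher, and 3 were lower without that library. Summed over both gene IDs of its symbol, COL12A1 was at 194 to 306 CPM with DMSO and 129 to 266 CPM with SB431542, a ratio of means of 0.837. frem1b, needed for the fin fold and its basement membrane, was higher without overlap, from 1.92 to 5.12 CPM to 6.66 to 9.55 CPM (1.11 ± 0.24, adjusted p = 0.0146), the only call among 23 fin fold and actinotrichia genes. The basement membrane gene NID1 (ENSDARG00000068710) was higher by 0.77 ± 0.16 (adjusted p = 0.0110), while the sum over its 2 gene IDs had a ratio of means of 1.07. MMP9, frem1b and NID1 were called in all 12 fits. mmp30 was lost without DMSO cut replicates 3 and 4, and SERPINE2, COL12A1, CNN3, HTRA1 and tpm4a were called in 9, 6, 6, 3 and 2.

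In bulk tails, fewer cells of a type and less RNA per cell cannot be told apart, which bears on all that follows. Of 20 cartilage and bone genes, mgp, an inhibitor of calcification, and SOX9 (ENSDARG00000043923), a regulator of cartilage, were lower. mgp was at 3.25, 3.81 and 16.4 CPM in cut DMSO tails and at most 0.999 CPM in the other DMSO and all SB431542 libraries (-2.82 ± 0.57, adjusted p = 0.0105), and was not called without DMSO uncut replicate 2 (adjusted p = 0.0505). SOX9 was at 64.7 to 115 CPM with DMSO and 44.0 to 80.5 CPM with SB431542 (-0.59 ± 0.15, adjusted p = 0.0279). hapln1a, which links hyaluronan to proteoglycans, was higher (0.76 ± 0.19, adjusted p = 0.0284). The summed level of the cartilage and bone markers was 1489 to 4836 CPM with DMSO and 1674 to 4584 CPM with SB431542, an almost complete overlap, as was that of 26 notochord markers at 3468 to 7436 CPM and 3688 to 7050 CPM. SOX9 and hapln1a were called in 7 and 6 of the 12 fits that left out 1 library, with the adjusted p reaching 0.0876 and 0.0912.

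In the periderm list icn, a calcium-binding S100 protein gene, was at 324, 269 and 173 CPM in cut and 282, 256 and 478 CPM in uncut DMSO tails, and at 580, 519 and 589 CPM in cut and 581, 489.7 and 483 CPM in uncut SB431542 tails. The SB431542 libraries were close together and all above the DMSO libraries (0.88 ± 0.17, adjusted p = 0.00979). ANXA1, an annexin gene, behaved alike, at 131 to 206 CPM and 229 to 242 CPM (0.55 ± 0.12, adjusted p = 0.0186). With krt97 lower, 3 of 27 periderm genes were called, and the summed level of the list was 11923 to 29147 CPM with DMSO and 14552 to 23808 CPM with SB431542. Within cut tails that sum was higher with SB431542 without overlap, if narrowly, at 11923 to 14502 CPM against 14552 to 17365 CPM. The basal epidermal sum was too, at 3878 to 4705 CPM against 4760 to 5718 CPM. In uncut tails the periderm sum overlapped, at 19490 to 29147 CPM against 18802 to 23808 CPM. The basal epidermal sum did too, at 5493 to 8789 CPM against 6171 to 7037 CPM. The median log2 fold change was 0.19 in cut and -0.06 in uncut tails for periderm members. For basal epidermal members it was 0.27 and -0.19. A gap upwards in cut tails was found for 12.6% of single genes, and a sum follows its most abundant members. Of 20 basal epidermal genes krt5 was higher (0.46 ± 0.13, adjusted p = 0.0481) and not called without uncut replicate 4 (adjusted p = 0.0799), and krt94 was lower (-0.75 ± 0.16, adjusted p = 0.0139). The 2 RHCG genes were the calls among 20 ionocyte and mucous cell genes. icn and krt94 were called in all 12 fits, ANXA1 in 9 and krt5 in 1.

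Of 23 macrophage markers, ctss2.1, a cathepsin gene, was higher (1.08 ± 0.23, adjusted p = 0.0126), and LCP1 (-0.81 ± 0.21, adjusted p = 0.0313) and apoeb (-0.50 ± 0.14, adjusted p = 0.0382) were lower. LCP1 was not called without SB431542 uncut replicate 4 (adjusted p = 0.0548), where the list gave 1 higher and 1 lower. In cut tails the summed level of the markers was 1914 to 2143 CPM with DMSO and 1072 to 1598 CPM with SB431542, with no overlap, and in uncut tails 443 to 666 CPM and 535 to 603 CPM, with overlap. Of that sum, apoeb alone held 336 to 1664 CPM with DMSO and 334 to 1070 CPM with SB431542 over both kinds of tail. By gene, 13 of the 23 markers lay above 0 and 10 below. Their median log2 fold change was 0.07 in the average, -0.23 in cut tails and 0.28 in uncut tails. The part of the summed level in the decreases of LCP1 and apoeb was not tested. Of 15 neutrophil markers MMP9 and srgn were higher, with sums of 364 to 553 CPM and 263 to 543 CPM. Of 22 cytokine and inflammation genes SOCS3 (ENSDARG00000026611, 0.72 ± 0.19, adjusted p = 0.0363), a feedback inhibitor of cytokine signalling, and the transcription factor gene CEBPD (0.81 ± 0.18, adjusted p = 0.0186) were higher. CEBPD ran from 59.6 to 123 CPM and from 101 to 205 CPM. Summed over both gene IDs of its symbol, SOCS3 had a ratio of means of only 1.02. Without uncut replicate 4 this list and that of immediate early genes gave 3 higher each. Of 33 immediate early genes NR4A1, a nuclear receptor gene and 1 of 2 higher ones, was at 4.39 to 12.9 CPM with DMSO and 12.8 to 36.1 CPM with SB431542 (1.58 ± 0.23, adjusted p = 0.00288). It was the highest in uncut replicate 4, and without it the log2 fold change was 1.41 (adjusted p = 0.000706). NR4A1 and ctss2.1 were called in all 12 fits. CEBPD was lost without DMSO cut replicate 4 and without DMSO uncut replicate 4, and LCP1, srgn, SOCS3 and apoeb were called in 4 or 5.

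Muscle genes gave 5 higher and 1 lower of 50, and 2 and 1 without SB431542 uncut replicate 4. The parvalbumin gene pvalb2, of fast muscle, averaged 18168 CPM with DMSO and rose to 25732 CPM (0.50 ± 0.13, adjusted p = 0.0362), MYOD1, a regulator of muscle cell fate, from 24.5 to 36.6 CPM (0.57 ± 0.16, adjusted p = 0.0386) and the aldolase gene ALDOA (ENSDARG00000011665) from 171 to 260 CPM (0.61 ± 0.15, adjusted p = 0.0238). The first 2 were not called without that library (adjusted p = 0.0713 and 0.0545). For ALDOA the sum over both gene IDs of the symbol had a ratio of means of only 1.05. The troponin gene TNNI1 (ENSDARG00000052708) was lower (-0.71 ± 0.17, adjusted p = 0.0232). Of 49 neuron and glia genes STMN2 (ENSDARG00000070537), of growing axons, was lower without overlap, from 27.5 to 48.0 CPM to 13.2 to 24.002 CPM (-0.83 ± 0.18, adjusted p = 0.0168). The sum over both STMN2 gene IDs overlapped, at 79.8 to 127 CPM with DMSO and 57.4 to 90.9 CPM with SB431542, a ratio of means of 0.745. The tubulin gene tubb5 was among the 2 higher ones of the list, or 3 without SB431542 uncut replicate 4. Of 19 pigment genes pmela (-0.54 ± 0.14, adjusted p = 0.0285) and the purine synthesis gene GMPS (-0.45 ± 0.12, adjusted p = 0.0378) were lower, and MLPH, of melanosome transport, was higher (0.73 ± 0.17, adjusted p = 0.0225), and without that library 3 were lower. Of 25 endothelial, 13 erythrocyte and 8 interferon response genes 0 were called. In the muscle, neuron, pigment, endothelial, erythrocyte and interferon lists the summed levels of the 2 treatments overlapped within cut and within uncut tails, and the part of cell numbers in the changes of single genes was not tested. STMN2 was called in 10 of the 12 fits, lost without DMSO cut replicate 4 and without SB431542 cut replicate 3, and the other genes named from these lists were called in 2 to 8, with the adjusted p reaching 0.122 for tubb5.

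**Figure D5:**
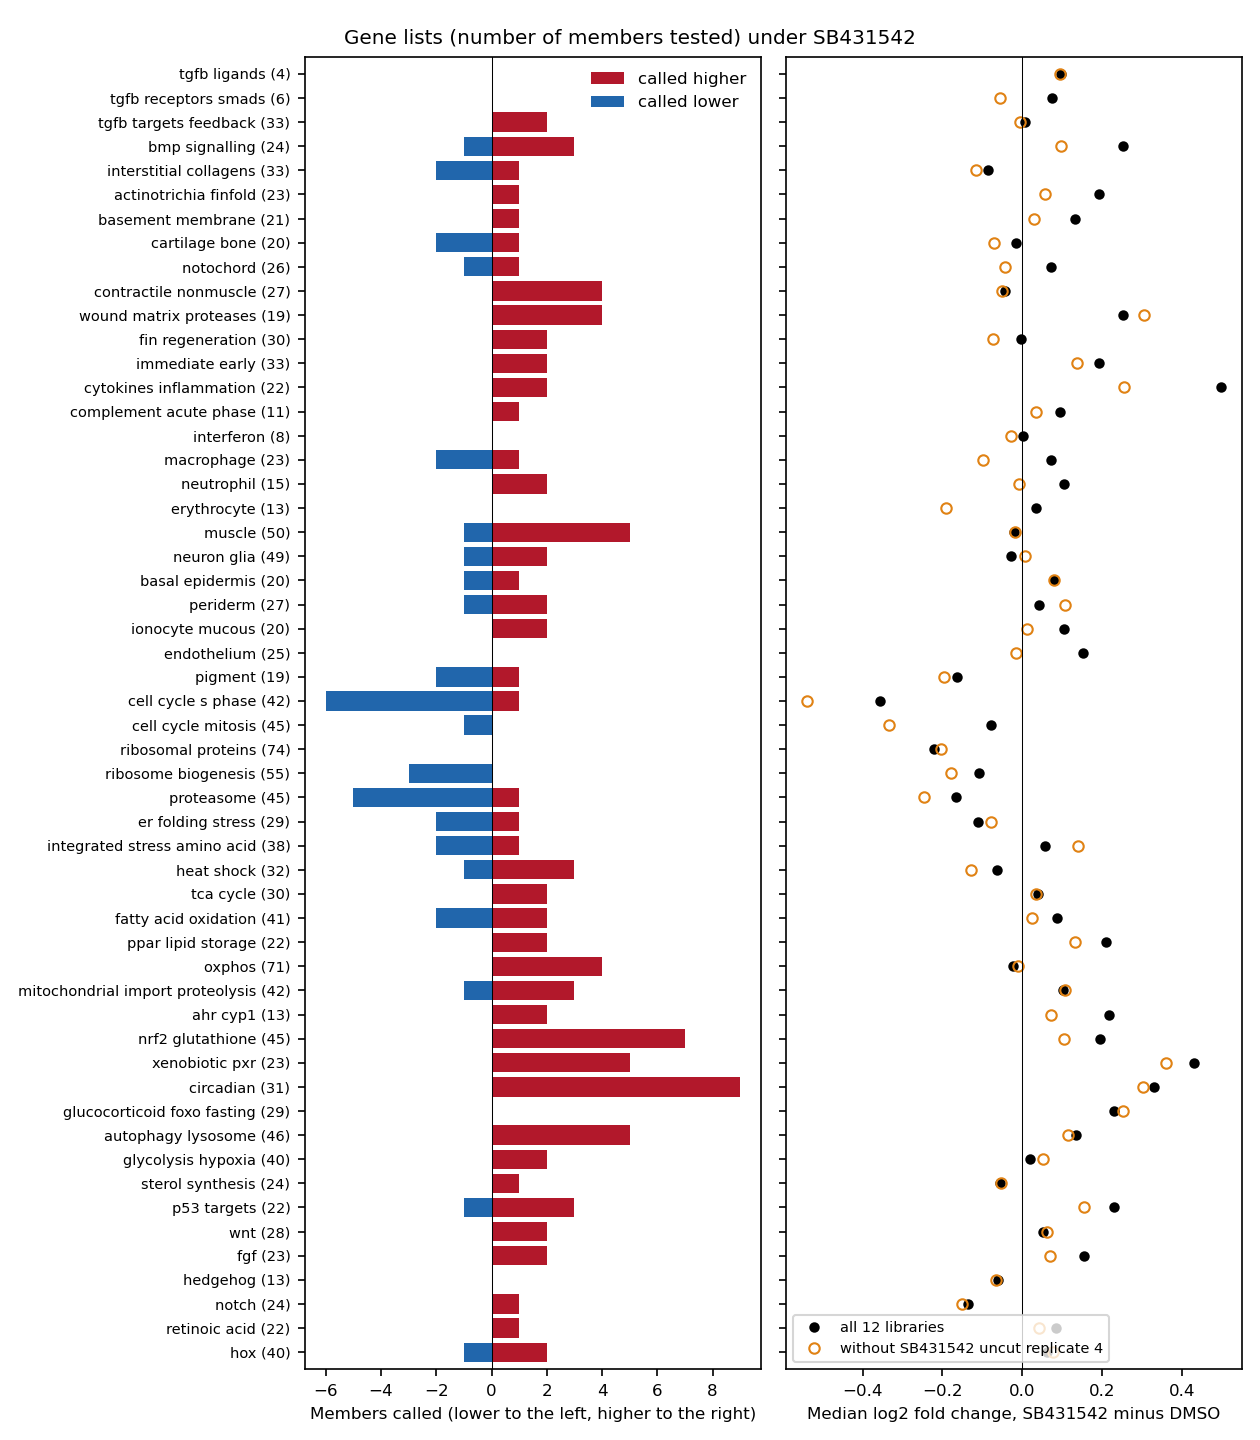
Number of list members called higher (red, to the right) and lower (blue, to the left) in the average, with the number tested in brackets after each list's name, and at the right the median log2 fold change over the tested members with all 12 libraries (filled) and without SB431542 uncut replicate 4 (open). Circadian genes have the most increases, 9 of 31, and S phase genes the most decreases, 6 of 42, and the open points lie left of the filled ones for S phase, mitosis and erythrocyte genes.

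Of the genes with placeholder names, 3 had the smallest adjusted p. zgc:92606 was at 15.5 to 30.3 CPM with DMSO and 34.5 to 41.3 CPM with SB431542 (0.83 ± 0.13, adjusted p = 0.00346), and si:ch211-251b21.1 at 239 to 301 CPM and 345 to 479 CPM (0.60 ± 0.12, adjusted p = 0.00979), both without overlap. ENSDARG00000110673, which has no symbol in the table used, was lower (-1.24 ± 0.23, adjusted p = 0.00911). The genes with the smallest p in the test of the difference between cut and uncut tails, beside snorc, PCOLCE2 and krt97, were f13a1b, hpcal4, DYRK1B, RIMOC1 and nadkb. The coagulation factor gene f13a1b had log2 fold changes of -1.28 in cut and 0.58 in uncut tails, the calcium sensor gene hpcal4 -1.57 and 0.13, the kinase gene DYRK1B 1.02 and -0.68, RIMOC1 1.19 and -0.29, and the NAD kinase gene nadkb -0.38 and 1.22. None of these 5 was called in the average, and none passed the test of the difference.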

How the data were processed

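Polyadenylated RNA of each pool of tails was sequenced from its 3' end (Lexogen QuantSeq 3' FWD), per the labels' protocols, so a library counts about 1 tag per transcript and no length correction was applied. What the authors deposited were estimated counts for 30258 Ensembl gene IDs, which need not be whole, and, in a second table, normalized signal values, which are those counts divided by a factor per library. The build is GRCz11 per the submitters' processing notes; the sources used here do not give the aligner or the counter. Reads recovered from the normalized table equalled the rounded estimated counts in 100% of values, within 1e-04 of a whole number. Symbols came from a table of gene names for 23598 IDs. 3608 IDs share a symbol with another, so reads of close copies may be split between them, and such IDs are printed.

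Estimated counts were rounded, filtered with filterByExpr, scaled by TMM and fitted in edgeR 4.0.16 (R 4.3.3) with 4 group means, robust quasi-likelihood F tests and Benjamini-Hochberg adjustment over all 13978 genes, two-sided, called under 0.05. The script was tested on simulated counts. Levels are TMM-scaled CPM and fold changes come from the fit. Each SE was derived from the test, as the absolute log2 fold change divided by the square root of its F statistic. Alternatives used limma 3.58.1, DESeq2 1.42.0, other scalings, filters and designs, and each library left out. The members and gene lists were chosen with earlier results of these data known, so lists are described by counts and medians without a test. Named were the 14 largest increases and 14 largest decreases with a symbol and a mean of at least 5 CPM, called with and without SB431542 uncut replicate 4 and of one sign in cut and uncut tails. Added to these were up to 5 called genes per list, all genes of the TGF-β lists, 8 genes of smallest p for the difference and 3 genes with placeholder names. A few genes that met this rule are not reported here. Genes named beyond it are said to be chosen after their values were seen.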

Additional observations from a re-analysis of the deposited data

How the results depend on the processing

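Of the 146 called genes under the naming rule, 0 changed direction under any alternative run. Genes named beyond that rule were not part of this check. Among uncalled genes of the TGF-β lists, the sign turned under some alternatives for 13 gene IDs. With each library left out these included SKI (-0.26 to 0.04), tgfb1a (-0.18 to 0.03), SMAD7 (-0.07 to 0.06) and INHBA (ENSDARG00000024759, -0.03 to 0.47). Wider ranges were those of loxl2a (-0.24 to 0.81), skib (-0.52 to 0.43) and ccn2b (-0.61 to 0.09). The 565 increases became 885 with DESeq2, 1007 without a count filter and 276 with excision ignored, and 186 to 945 with each library left out. The 272 decreases became 513 with DESeq2, 448 with limma-voom and library weights, 539 without a filter, 162 with the replicate block and 62 with excision ignored, and 41 to 573 with each library left out. The calls in cut tails became 330 with DESeq2, 34 with limma-voom, 636 with library weights, 503 without a filter and 414 with only the cut libraries, and 0 to 313 with each library left out. Those in uncut tails became 331 with DESeq2, 750 without a filter, 5 with the replicate block, 4 with only the uncut libraries, 1 with limma-voom and 2 each with RLE scaling, library weights and limma-trend at both pseudocounts, and 0 to 565 with each library left out. Calls for the difference became 2 with DESeq2, 55 without a filter and 1 with limma-trend at a pseudocount of 0.1, and stayed at 0 with each library left out. The causes were not tested. Same-numbered libraries of different groups had correlated deviations in 4 of 13 pairs (over 0.1, range -0.0498 to 0.343, median 0.0357). The highest value of any pair, 0.343, was that of SB431542 cut and uncut replicate 4. The 41 pairs of different number had a median of -0.0218. Those of different number that lay over 0.1 were at 0.104, 0.107, 0.133, 0.160 and 0.182, the last for SB431542 cut replicate 2 and uncut replicate 3. The labels do not say what the number marks, so it was not taken to pair the libraries, and a share of it in the calls was not tested. With the number as a replicate block 412 increases were called, 357 and 123 of the original calls were kept, as were 93 of the 146 called genes under the naming rule. Number 1 occurs only with DMSO. The median SE of 0.23 limits the average to changes well above it, and the 3 libraries per group limit the difference further.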

Other observations

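Some genes in none of the lists, chosen after their values were seen, separated the treatments in these libraries, and their values are given as a description. tspo, which encodes a translocator of the outer mitochondrial membrane that binds cholesterol and porphyrins, was at 60.7 to 108 CPM with DMSO (median 67.5) and at 118 to 262 CPM with SB431542 (median 171). tdh, a threonine dehydrogenase gene, was at 37.7 to 60.9 CPM with DMSO and 84.2 to 225 CPM with SB431542, with a log2 fold change of 1.37 ± 0.19 (adjusted p = 0.00288 in edgeR). AIFM2, which encodes a reductase of coenzyme Q that limits lipid peroxidation in mammalian cells, was at 2.39 to 4.57 CPM and 6.81 to 12.7 CPM. hax1, of a mitochondrial protein that protects cells from apoptosis, was at 3.41 to 5.80 CPM and 9.47 to 22.2 CPM. For these 4 genes no SB431542 library reached down to the highest DMSO library, and each was called in all 12 fits that left out 1 library. HEBP2, a heme-binding protein gene of the SOUL family, was at 2.14 to 9.05 CPM and 7.84 to 27.22 CPM, overlapped slightly, and was called in 11 of the 12 fits.

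Some large fold changes at low levels were in gene IDs that share a symbol with another ID. PAOX, a polyamine oxidase gene, was also chosen after its values were seen. It has an ID (ENSDARG00000003380) that was at 0 in 4 of the 6 DMSO libraries and at 6.81 to 30.6 CPM with SB431542. Its second ID (ENSDARG00000109596) was at 0 in all 6 SB431542 libraries and at up to 7.17 CPM with DMSO. The sum over both was 1.74 to 7.47 CPM with DMSO and 6.81 to 30.6 CPM with SB431542, a ratio of means of 2.99. For COX7A2, an ID (ENSDARG00000110700) was called higher at a mean of 0.231 CPM with DMSO and 2.44 CPM with SB431542, while the sum over the symbol went from 581 to 556 CPM. Of all called increases 48 had a DMSO mean under 1 CPM, and 18.1% carried a shared symbol, against 15.3% of the genes tested.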
